A study of Arabidopsis thaliana with 16 samples.

Results

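The genes described here are 10 transcription factors of phosphate signalling in Arabidopsis thaliana, taken by locus identifier from the 32678 loci counted in this RNA-seq series. They are PHR1 (AT4G28610, chr4:14132811-14135292, minus strand), its relatives PHL1 (AT5G29000, chr5:11021980-11024978, minus strand), PHL2 (AT3G24120, chr3:8705608-8708336, minus strand) and PHL3 (AT4G13640, chr4:7936592-7938705, minus strand), the WRKY factors WRKY75 (AT5G13080, chr5:4149738-4151201, minus strand), WRKY6 (AT1G62300, chr1:23016569-23019494, minus strand) and WRKY42 (AT4G04450, chr4:2218042-2221260, plus strand), the basic helix-loop-helix factor BHLH32 (AT3G25710, chr3:9369499-9371487, plus strand), the zinc finger protein ZAT6 (AT5G04340, chr5:1216058-1217362, minus strand) and the MYB factor MYB62 (AT1G68320, chr1:25603676-25605181, plus strand). Coordinates are those of the RefSeq annotation of TAIR10.1. The plants were 25 days old, untreated, and all carried the pho1-4 mutation in PHO1, whose protein exports phosphate to the xylem of roots. EXS34 and EXS32 are mutant lines 34 and 32 in which the EXS domain of PHO1 is expressed joined to GFP, KO is the pho1-4 knockout mutant itself, and Compl is the mutant complemented with the PHO1 gene. Roots and leaves of each genotype were represented by 2 libraries each, which makes 8 groups and 16 libraries with no wild type among them. The labels name neither the promoter of a transgene nor how many plants went into a library, and each EXS line is 1 transgenic line.

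Plants short of phosphate switch on a common set of genes for phosphate uptake, recycling and lipid exchange. PHR1 and its relatives are MYB-type factors that bind a short promoter element of those genes, called P1BS, and SPX proteins hold PHR1 back when phosphate is ample. WRKY75 is induced by phosphate shortage, WRKY6 and WRKY42 repress PHO1, BHLH32 represses genes of the starvation response, ZAT6 affects root growth and phosphate uptake, and MYB62 links phosphate shortage to gibberellin.

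Root libraries held 20139794 to 31405117 reads and leaf libraries 9465995 to 15530134 reads, so low transcripts were measured less precisely in leaves. Levels are in CPM, read counts divided by library size, after TMM scaling, which sets libraries on 1 scale from the genes they share. The summed markers of each organ followed the organ labels. The root marker SCR did not by itself, with a log2 fold change of 0.056 for roots over leaves (adjusted p = 0.511, edgeR's quasi-likelihood test). The 7 leaf markers summed to 34.9 to 137 CPM in root libraries and 39434 to 48972 CPM in leaf libraries, and the 7 root markers to 463 to 854 CPM in root libraries and 49.2 to 73.6 CPM in leaf libraries. The genotype labels are less certain in leaves: the files of all 8 leaf libraries are named for another genotype than their label, while root file names and labels match. Leaf groups are therefore written with the label first and the genotype in the file name in brackets: EXS34 [KO], EXS32 [EXS34], KO [Compl] and Compl [EXS32]. Among root libraries, the first principal component set both Compl libraries apart, replicate 1 the farther. Compl replicate 1 scored 68.3 and replicate 2 31.82, against -44.68 to 8.89 in the rest of the root libraries. Among leaf libraries both Compl [EXS32] libraries stood apart, at 38.99 and 53.95 against -30.09 to 11.8. PHO1 itself had 1974 and 1184 CPM in EXS34 roots, 1546 and 1568 CPM in EXS32 roots, 1845 and 1593 CPM in KO roots and 1880 and 2378 CPM in Compl roots. These overlapping levels check no label, because a mutant gene can still be transcribed and a transgene's reads can count at the PHO1 locus. Whether both libraries of a group stem from separate plants is not in the labels; a p-value therefore covers only the spread between these libraries, which may be technical.

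The 300 bases before the annotated start of each gene were searched on both strands for P1BS, spelled GNATATNC, and for the core of the W-box, TTGAC, the element that WRKY factors bind. P1BS letters stood in 1 of the 10 promoters, that of ZAT6, and in 6.51% of 27437 Arabidopsis promoters of the same length. W-box core letters stood in 4 of the 10, those of WRKY75, WRKY6, WRKY42 and MYB62, and in 50.4% of all promoters, so 4 of 10 is near the share of all promoters. The promoters of ZAT6, WRKY75 and WRKY6 are shown because these 3 genes differed between the leaf groups. They were read 5′ to 3′ from TAIR10.1, with the motif letters of either strand in capitals. The window of ZAT6 is chr5:1217363-1217662 on the minus strand, that of WRKY75 chr5:4151202-4151501 on the minus strand and that of WRKY6 chr1:23019495-23019794 on the minus strand.
ZAT6: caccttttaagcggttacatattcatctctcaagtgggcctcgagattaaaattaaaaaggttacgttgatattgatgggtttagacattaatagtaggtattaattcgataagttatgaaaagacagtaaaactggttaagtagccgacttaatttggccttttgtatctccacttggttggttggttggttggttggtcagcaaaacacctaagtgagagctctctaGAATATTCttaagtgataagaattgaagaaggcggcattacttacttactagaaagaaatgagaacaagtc
WRKY75: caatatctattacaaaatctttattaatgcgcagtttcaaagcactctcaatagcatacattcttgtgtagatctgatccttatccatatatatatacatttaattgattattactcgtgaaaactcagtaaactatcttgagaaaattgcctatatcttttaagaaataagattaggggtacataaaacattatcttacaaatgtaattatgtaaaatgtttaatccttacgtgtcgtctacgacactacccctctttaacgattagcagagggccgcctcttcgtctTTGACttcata
WRKY6: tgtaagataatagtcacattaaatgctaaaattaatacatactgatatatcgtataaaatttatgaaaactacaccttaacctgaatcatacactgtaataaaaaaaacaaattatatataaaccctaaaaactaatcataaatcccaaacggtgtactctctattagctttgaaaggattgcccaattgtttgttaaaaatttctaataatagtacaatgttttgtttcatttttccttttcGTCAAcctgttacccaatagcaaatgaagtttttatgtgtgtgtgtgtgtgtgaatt
The ZAT6 match begins 71 bases before the gene start, the WRKY75 match 11 bases and the WRKY6 match 57 bases. A match describes the letters only and is no evidence of binding. Neither motif was found in the PHO1 window, and 6 of 18 phosphate starvation target genes held P1BS letters.

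All 10 members were detected in both organs, at levels that spanned more than 2 orders of magnitude. To compare genes, CPM was divided by the length of the exons in kb. In roots PHR1 had the highest median, 30.3 CPM per kb (27.3 to 37.0 over 8 libraries), followed by BHLH32 at 25.9 (17.9 to 33.0), PHL2 at 25.3 (21.0 to 27.2) and ZAT6 at 20.7 (15.2 to 36.6). PHL3 at 15.4 CPM per kb, WRKY6 at 13.96 and PHL1 at 13.1 came next in roots, with ranges of 12.6 to 18.3, 10.9 to 28.0 and 11.2 to 14.5. Down to PHL1 the ranges of neighbours in this order overlap. WRKY75 followed at 7.39 CPM per kb (5.99 to 10.1), below every root library of PHL1, and WRKY42 at 0.79 (0.329 to 1.74) lay below every root library of WRKY75. MYB62 was last in roots at 0.112 CPM per kb (0 to 1.04) and overlapped WRKY42. In leaves the order began with PHL3 at 35.5 CPM per kb (29.0 to 43.9) and PHR1 at 33.6 (29.4 to 41.0), which overlap. PHL2 at 16.7 CPM per kb (14.1 to 20.9) was next in leaves and lay below every library of PHL3 and PHR1. ZAT6 at 8.33 (3.65 to 16.3), WRKY6 at 7.17 (4.31 to 13.1), PHL1 at 6.76 (6.3 to 8.53), BHLH32 at 4.38 (2.87 to 7.35) and WRKY75 at 2.29 CPM per kb (0.29 to 7.87) followed in leaves, each overlapping its neighbours. WRKY42, at 0.621 CPM per kb (0.268 to 1.0), and MYB62, at 0.272 CPM per kb (0.0887 to 0.569), were lowest in leaves, and both overlapped the WRKY75 range. MYB62 was near the limit of detection, with 0 to 32 reads in a root library and 1 to 7 reads in a leaf library, and it did not pass the filter on low counts within either organ. Tests between genotypes therefore cover 9 of the 10 members.

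**Figure D1:**
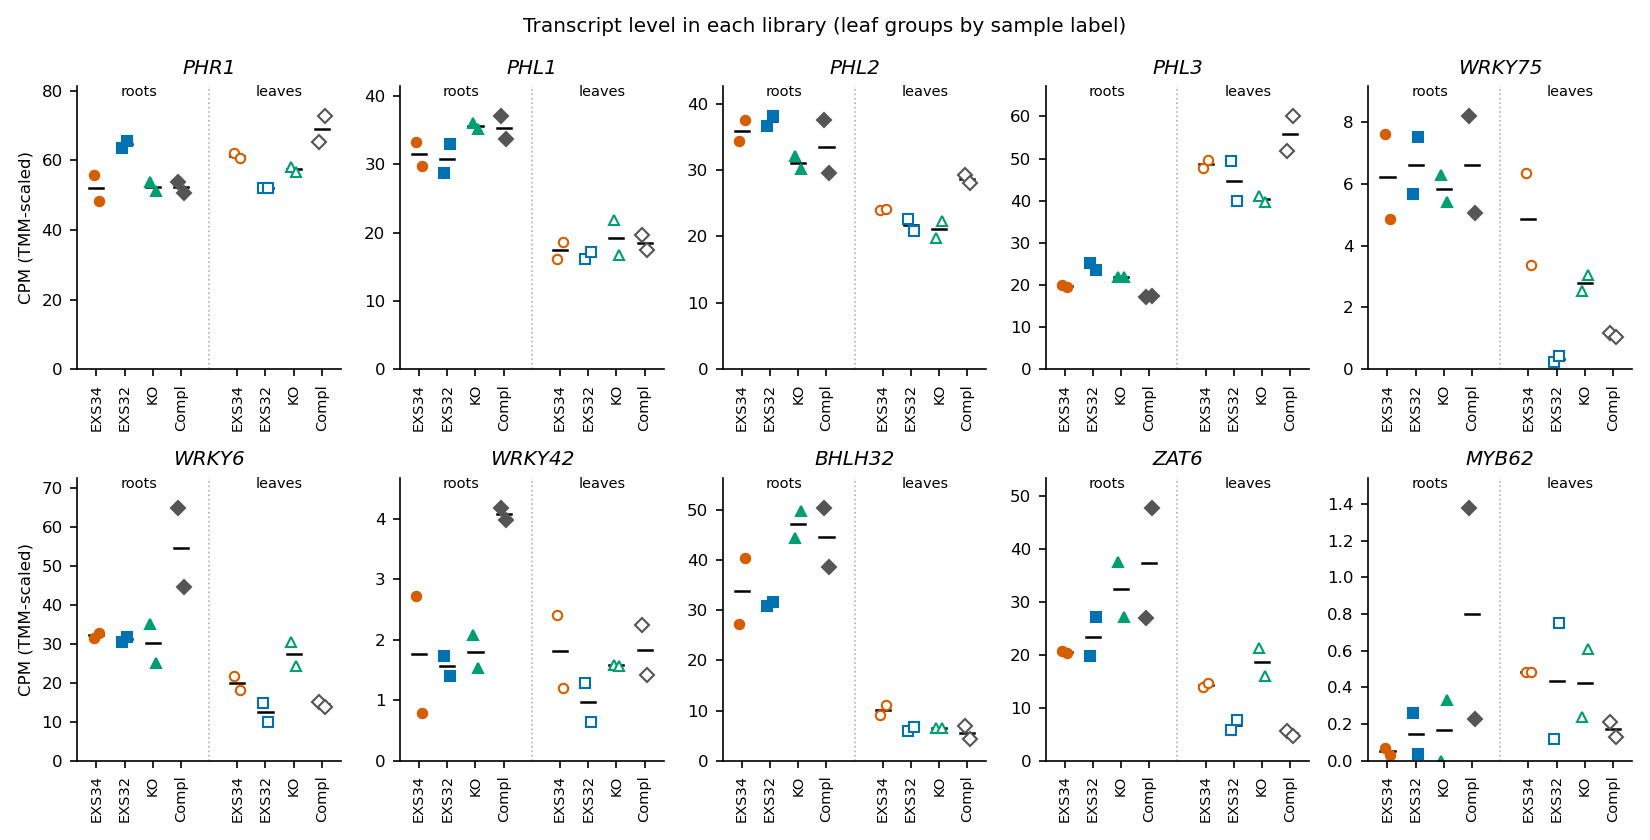
Transcript level of each member in every library, in TMM-scaled CPM on a linear axis from 0. Points are single libraries (filled for roots, open for leaves), bars are means of the 2 libraries of a group, and leaf groups are placed by sample label; WRKY75, ZAT6 and WRKY6 are spread widely between leaf groups, and WRKY6 and WRKY42 are highest in Compl roots.

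Roots and leaves were compared over 8 libraries each, with the 4 genotypes given equal weight, a comparison that does not depend on how the leaf groups are named. Between the organs 8 of the 10 members passed the threshold of an adjusted p under 0.05, 6 higher and 2 lower in roots, while 81.6% of all 21351 tested genes did so, 43.1% higher and 38.4% lower. The members' median log2 fold change was 0.71, against 0.06 for all genes. A difference between organs in bulk tissue can be a difference in cell types or in RNA per cell, and these cannot be told apart.

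BHLH32, which under its other name TMO5 is known for vascular development, had the largest difference. It had 27.3 CPM in the lowest, 39.5 CPM in the median and 50.4 CPM in the highest root library, against 4.38, 6.68 and 11.2 CPM in leaves. Its log2 fold change was 2.46 ± 0.11 (SE), with an adjusted p of 2.98e-10 in edgeR's quasi-likelihood test, and no root library overlapped a leaf library. WRKY75 had 4.85, 5.98 and 8.19 CPM in roots (lowest, median and highest library), against 0.235, 1.86 and 6.37 CPM in leaves, a log2 fold change of 2.06 ± 0.21 (adjusted p = 9.68e-07). Its organs overlapped, because the EXS34 [KO] leaf library with 6.37 CPM lay within the root range. ZAT6 had 19.8, 27.0 and 47.8 CPM in roots, against 4.76, 10.9 and 21.3 CPM in leaves, a log2 fold change of 1.48 ± 0.14 (adjusted p = 7.13e-07). WRKY6 had 25.2, 32.4 and 64.9 CPM in roots, against 10, 16.6 and 30.4 CPM in leaves, a log2 fold change of 1.02 ± 0.11 (adjusted p = 2.4e-06). For both genes the highest leaf library, 1 of KO [Compl], reached into the root range.

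PHR1 and its relatives did not share a direction. PHL1 was higher in roots, at 28.7, 33.5 and 37.0 CPM against 16.1, 17.3 and 21.8 CPM in leaves, a log2 fold change of 0.89 ± 0.07 (adjusted p = 7.37e-08). PHL2 was also higher in roots, at 29.5, 35.5 and 38.1 CPM against 19.8, 23.3 and 29.3 CPM in leaves, a log2 fold change of 0.54 ± 0.061 (adjusted p = 2.96e-06). PHL3 was lower in roots, at 17.2, 21.0 and 25.1 CPM against 39.7, 48.6 and 60.0 CPM in leaves, a log2 fold change of -1.18 ± 0.055 (adjusted p = 3.03e-10). The organs did not overlap for PHL1, PHL2 (29.5 against 29.3 CPM at their nearest) or PHL3. PHR1 had 48.3, 53.7 and 65.5 CPM in roots, against 52.0, 59.4 and 72.6 CPM in leaves, and its organs overlapped widely. Its small log2 fold change of -0.12 ± 0.046 passed the threshold (adjusted p = 0.0326) only in some settings. The call was lost with DESeq2 size factors (adjusted p = 0.0764), with DESeq2 (0.102), with no filter on low counts (0.0788) and without any 1 of 9 libraries, at adjusted p-values up to 0.0796. These libraries were EXS34 roots replicate 2, EXS32 roots replicate 1, KO roots replicate 2, Compl roots replicate 2, EXS34 [KO] replicate 1, EXS32 [EXS34] replicate 1, both of KO [Compl] and Compl [EXS32] replicate 2. With scaling by library size alone PHR1 turned to 0.44, while relative to the median of all genes it stood at -0.17 under both scalings. PHR1 also overlaps AT4G28600 on the other strand by 59 bases, and whether the counts used strand is not given in the sources used here.

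WRKY42 and MYB62 were not called between organs. WRKY42 had 0.793, 1.9 and 4.18 CPM in roots, against 0.645, 1.49 and 2.41 CPM in leaves, a log2 fold change of 0.49 ± 0.27 (adjusted p = 0.114). It was called without EXS34 roots replicate 2, at 0.65 (adjusted p = 0.0108), and with library size alone, at 1.04 (adjusted p = 0.00248), a scaling that moved all genes; relative to their median it stood at 0.43 under both scalings. MYB62 had a median of 0.148 CPM in roots, with 62 reads over the 8 libraries, against 0.36 CPM in leaves, with 30 reads, and a log2 fold change of -0.95 ± 0.76 (adjusted p = 0.262). It was called without KO roots replicate 2, which held 13 reads, at -2.13 (adjusted p = 0.0398).

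The size of every organ difference depends on the scaling. Scaling by library size alone moved the median log2 fold change of all genes from the 0.06 given above to 0.62 and the share of called genes that were higher in roots to 73.6%, against 52.9% with TMM. Relative to those medians the order of the members did not change. With library size alone, and not taken relative to the median, BHLH32 stood at 3.02, WRKY75 at 2.61, ZAT6 at 2.05 and WRKY6 at 1.58. Under that scaling PHL1 stood at 1.45, PHL2 at 1.09 and PHL3 at -0.63. These 7 members kept their direction under both scalings.

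**Figure D2:**
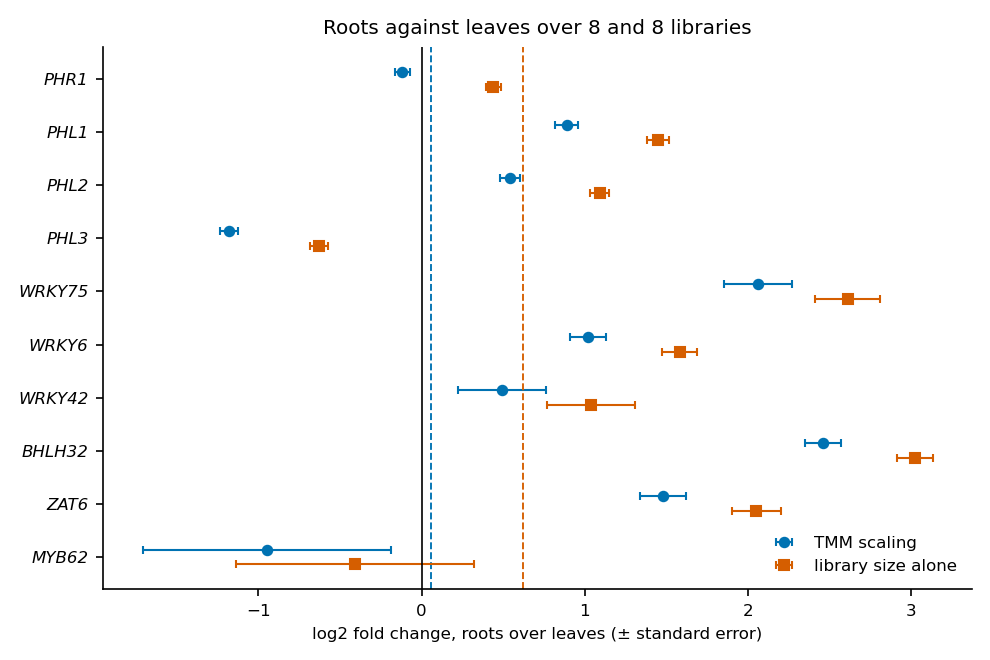
Log2 fold change of each member, roots over leaves, with its standard error, under TMM scaling (circles) and under library size alone (squares). Dashed lines mark the median of all genes under each scaling, 0.06 and 0.62, and PHR1 lies on either side of 0.

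In roots the test for any difference among the 4 genotypes called 0 of the 9 tested members, against 3.98% of 20597 genes, a share at which 9 genes would hold few calls or none. That share rests on single libraries: 820 genes were called, against 10 without EXS32 replicate 1, 13 without EXS32 replicate 2 and 212 to 1670 without any 1 of the other 6 libraries. With edgeR's quasi-likelihood test 4 members had an unadjusted p under 0.05, DESeq2 called 1 of them (WRKY6) and limma-voom called 0. WRKY6 was also called with all 16 libraries in 1 fit (adjusted p = 0.0321) and without Compl replicate 2 (0.0377), and PHL3 with all 16 libraries (0.0408). The lowest adjusted p-values were those of WRKY6 (0.0844) and PHL3 (0.0965). Of the 6 pairs of genotypes, EXS32 against Compl alone gave member calls in this test, 2 of 9, with 12.4% of all genes called. These were 2548 genes, against 167 and 112 without EXS32 replicate 1 or 2 and 1617 without Compl replicate 1. The other pairs called 0 of 9 members, with 1 to 3 members at an unadjusted p under 0.05. In those pairs 0.908% of all genes were called for EXS34 over EXS32, 0% for EXS34 over KO, 0.131% for EXS34 over Compl, 0.126% for EXS32 over KO and 0.884% for KO over Compl. DESeq2 called WRKY6 for EXS34 over Compl and for KO over Compl, and limma-voom called no member in these 5 pairs.

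WRKY6, a repressor of PHO1, had 30.5 and 31.8 CPM in EXS32 roots, against 64.9 and 44.5 CPM in Compl roots. EXS34 roots had 31.6 and 32.9 CPM and KO roots 35.2 and 25.2 CPM, so both Compl libraries lay above the other 6 root libraries. The log2 fold change of EXS32 over Compl was -0.82 ± 0.20 (adjusted p = 0.0398), and 7.27% of all genes were called lower. It was -0.77 ± 0.20 for EXS34 over Compl (adjusted p = 0.189) and -0.87 ± 0.20 for KO over Compl (adjusted p = 0.0911), neither of them called. Without Compl replicate 1, which had the higher of the Compl values, the EXS32 value was -0.51 and not called. The call was also lost without either EXS32 library (adjusted p = 0.207 and 0.203), without either EXS34 library (0.0611 and 0.0682), with only the 4 libraries compared (0.07) and with limma-voom (0.0501). Without Compl replicate 2, which had the lower of the Compl values, WRKY6 was called for EXS34 over Compl at -1.01 (adjusted p = 0.0425) and for KO over Compl at -1.10 (adjusted p = 0.0244).

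WRKY42, the other repressor of PHO1, was also highest in Compl roots, at a lower level. It had 2.73 and 0.793 CPM in EXS34 roots, 1.73 and 1.4 CPM in EXS32 roots, 2.08 and 1.53 CPM in KO roots and 4.18 and 3.98 CPM in Compl roots. Both Compl libraries were again above the other 6, and the 2 EXS34 libraries were the farthest apart. The log2 fold change over Compl was -1.23 ± 0.50 for EXS34 (adjusted p = 0.324), -1.39 ± 0.50 for EXS32 (adjusted p = 0.115) and -1.19 ± 0.49 for KO (adjusted p = 0.236). The EXS32 value was called without either EXS34 library, at -1.39 and -1.37 (adjusted p = 0.0284 and 0.0285), and with only the 4 libraries compared, at -1.36 (adjusted p = 0.043). PHO1, the gene both factors repress, was not called against Compl in roots: -0.44 ± 0.25 for EXS34, -0.46 ± 0.25 for EXS32 and -0.32 ± 0.25 for KO (adjusted p = 0.45, 0.254 and 0.514).

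PHL3 had 25.1 and 23.6 CPM in EXS32 roots, against 17.2 and 17.4 CPM in Compl roots, with 20.1 and 19.6 CPM in EXS34 roots and 21.9 and 22.0 CPM in KO roots. The 4 groups did not overlap, EXS32 being highest and Compl lowest. The log2 fold change of EXS32 over Compl was 0.48 ± 0.10 (adjusted p = 0.0256), and 5.1% of all genes were called higher. The call was lost without Compl replicate 1 (0.49, adjusted p = 0.059), without EXS32 replicate 1 (0.45, adjusted p = 0.161) or replicate 2 (0.55, adjusted p = 0.122), and with only the 4 libraries compared (adjusted p = 0.0628). PHR1 was likewise highest in EXS32 roots, at 63.6 and 65.5 CPM, against 55.7 and 48.3 CPM in EXS34, 53.7 and 51.1 CPM in KO and 53.7 and 50.7 CPM in Compl roots. Its log2 fold change over Compl was 0.30 ± 0.10 and was not called (adjusted p = 0.0895), but it was called with all 16 libraries in 1 fit, at 0.31 (adjusted p = 0.0337).

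The other members were not called in any root pair. BHLH32 had 27.3 and 40.4 CPM in EXS34 roots and 30.9 and 31.6 CPM in EXS32 roots, against 44.4 and 49.8 CPM in KO roots and 50.4 and 38.6 CPM in Compl roots. Its lowest adjusted p in a root pair was 0.131, for EXS32 over Compl at -0.51 ± 0.20; fitted on only the 4 libraries compared, EXS32 over KO was called at -0.59 (adjusted p = 0.0329). ZAT6 had 20.7 and 20.3 CPM in EXS34, 19.8 and 27.1 CPM in EXS32, 37.6 and 27.2 CPM in KO and 27.0 and 47.8 CPM in Compl roots. The largest ZAT6 difference in roots was -0.88 ± 0.29 for EXS34 over Compl (adjusted p = 0.261). WRKY75 was nearly level in roots, at 7.63 and 4.85 CPM in EXS34, 5.67 and 7.53 CPM in EXS32, 6.29 and 5.41 CPM in KO and 8.19 and 5.07 CPM in Compl. Its root log2 fold changes lay between -0.19 ± 0.30 and 0.18 ± 0.30. PHL1 and PHL2 varied by 1.29 times between their lowest and highest root library.

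The same root libraries differed in phosphate starvation target genes, a chosen list whose dependence on PHR1 was not tested. KO over Compl roots had 7 of 17 tested target genes higher and 0 lower, with a median log2 fold change of 1.31 against -0.01 for all genes and 0.466% of all genes called higher. Without either KO library or without Compl replicate 1 it had 0 target genes called, and without either EXS32 library 1, with medians of 1.09 to 1.64. Limma-voom called 2 and the fit of only the 4 libraries compared 1. DESeq2 called 11 target genes, all higher, among 1234 genes called in all. All 16 libraries in 1 fit called 10, all higher, among 1121. Among them PHO1;H1, a PHO1 homologue, had 61.0 and 62.9 CPM in KO and 14.7 and 12.2 CPM in Compl roots, and the sulfolipid gene SQD1 had 66.5 and 91.9 CPM in KO and 26.4 and 25.0 CPM in Compl roots. EXS32 over Compl had 8 of 17 target genes higher and 1 lower (median 1.14), against 2 higher without EXS32 replicate 1 and 0 without EXS32 replicate 2. Of 21 other regulators of phosphate signalling, 3 differed among the genotypes in roots, against 3.98% of all genes. These 3 were the PHR1 inhibitor SPX1 and the ubiquitin pathway genes PHO2 and NLA (adjusted p = 0.0423, 0.0461 and 0.0462). With the replicate block and without EXS32 replicate 1 or 2, KO replicate 2 or Compl replicate 1, 0 of the 21 were called, and without any 1 of the other libraries 1 or 2. The summed leaf markers were 110 and 137 CPM in EXS34, 52.9 and 80.4 CPM in EXS32, 54.2 and 74.2 CPM in KO and 45.0 and 34.9 CPM in Compl roots. The root hair list summed to 238 and 249 CPM in EXS34, 285 and 301 CPM in EXS32, 308 and 263 CPM in KO and 461 and 350 CPM in Compl roots. Of 6 tested xylem and vascular genes 1, the phloem gene SUC2, differed among root genotypes. In EXS32 over Compl, the pair in which WRKY6 and PHL3 were called, 4 of the 6 were called, against 12.4% of all genes. The median of the 6 was -0.64, against -0.02 for all genes. SUC2 was higher, at 131.7 and 122.5 CPM in EXS32 and 53.1 and 48.9 CPM in Compl roots. The secondary wall cellulose synthase genes CESA4 and CESA7 and the xylem protease gene XCP1, named after their values were seen, were lower, at -0.79 ± 0.19, -0.68 ± 0.17 and -0.76 ± 0.19 (adjusted p = 0.0412, 0.0431 and 0.042). XCP1 had 99.1 and 90.8 CPM in EXS32 and 190.8 and 128.9 CPM in Compl roots, with Compl replicate 1 the highest. Without any 1 root library other than Compl replicate 2, SUC2 alone was called, with a median of -0.37 over the 6 genes without Compl replicate 1. The part of these cell types in the WRKY6 and PHL3 differences was not tested. LHW, the known partner of BHLH32, was listed at 0 in all 16 libraries.

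In leaves the test for any difference among the 4 groups, which does not depend on their names, called 4 of the 9 tested members, ZAT6, WRKY75, WRKY6 and PHR1. It called 26.9% of all 18548 tested genes, also a larger share than in roots; whether the members' count differs between organs beyond that was not tested. The 4981 genes called became 2211 to 2497 without any 1 library of KO [Compl] or Compl [EXS32]. The first 3 are stress- or starvation-responsive factors and are described first. The 6 pairs share libraries, so values of different pairs are not separate evidence. EXS34 [KO] over EXS32 [EXS34] called 2 of 9 members and 5.69% of all genes, EXS34 [KO] over Compl [EXS32] 3 members and 18.3%, and EXS32 [EXS34] over KO [Compl] 3 members and 5.93%. EXS32 [EXS34] over Compl [EXS32] called 1 member and 14.8% of all genes. KO [Compl] over Compl [EXS32] called 4 members and 21.1% of all genes, with WRKY6 and ZAT6 higher, against 10.5% of all genes, and PHL2 and PHL3 lower, against 10.6%.

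WRKY75 had 6.37 and 3.38 CPM in EXS34 [KO] leaves, 0.235 and 0.43 CPM in EXS32 [EXS34] leaves, 2.54 and 3.06 CPM in KO [Compl] leaves and 1.18 and 1.03 CPM in Compl [EXS32] leaves. The 4 groups did not overlap, and the highest library stood 27.1 times above the lowest. These values rest on few reads: 66 and 28 in EXS34 [KO], 2 and 4 in EXS32 [EXS34], 32 and 35 in KO [Compl] and 11 and 8 in Compl [EXS32]. The difference among the groups had an adjusted p of 0.00277, between 0.000713 and 0.015 when 1 library was left out. EXS34 [KO] was higher than EXS32 [EXS34] by 3.81 ± 0.51 on the log2 scale (adjusted p = 0.00675) and higher than Compl [EXS32] by 2.14 ± 0.41 (adjusted p = 0.00857). EXS32 [EXS34] over KO [Compl] was -2.99 ± 0.53 (adjusted p = 0.0159). EXS34 [KO] over KO [Compl], at 0.82 ± 0.35, was not called (adjusted p = 0.193), and neither was KO [Compl] over Compl [EXS32] at 1.32 ± 0.43 (adjusted p = 0.056). The last was called, at 1.32 to 1.34, with no filter on low counts (adjusted p = 0.0478), with the replicate block (0.0449), with only the 4 libraries compared (0.0202) and without either EXS34 [KO] library (0.0303 and 0.025). The call against EXS32 [EXS34] was lost without its replicate 1 (3.48, adjusted p = 0.0568), and the call against Compl [EXS32] without either library of that group (adjusted p = 0.0618 and 0.0722). The EXS32 [EXS34] over KO [Compl] call was lost without either EXS32 [EXS34] library (adjusted p = 0.0785 and 0.0728) or either KO [Compl] library (0.0888 and 0.0974).

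ZAT6 had 14 and 14.7 CPM in EXS34 [KO] leaves, 5.87 and 7.74 CPM in EXS32 [EXS34] leaves, 21.3 and 16.1 CPM in KO [Compl] leaves and 5.56 and 4.76 CPM in Compl [EXS32] leaves. Both KO [Compl] libraries were above the EXS34 [KO] libraries, which in turn were above the other 4. The adjusted p for a difference among the groups was 0.000821, the lowest of the members in leaves, and between 0.000628 and 0.00931 when 1 library was left out. EXS34 [KO] was higher than EXS32 [EXS34] by 1.06 ± 0.20 (adjusted p = 0.0206) and higher than Compl [EXS32] by 1.47 ± 0.21 (adjusted p = 0.00243). EXS32 [EXS34] was lower than KO [Compl], at -1.44 ± 0.20 (adjusted p = 0.0068). KO [Compl] was higher than Compl [EXS32] by 1.84 ± 0.21 (adjusted p = 0.000425). EXS34 [KO] over KO [Compl] was -0.38 ± 0.18 (adjusted p = 0.254). The 1.06 difference was no longer called without EXS34 [KO] replicate 1 (1.09, adjusted p = 0.0586), without EXS32 [EXS34] replicate 1 (0.88, adjusted p = 0.119), with all 16 libraries in 1 fit (0.0915) or with only the 4 libraries compared (0.078), and the -1.44 difference without KO [Compl] replicate 1 (-1.24, adjusted p = 0.0779).

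WRKY6 had 21.7 and 18.1 CPM in EXS34 [KO] leaves, 14.8 and 10 CPM in EXS32 [EXS34] leaves, 30.4 and 24.3 CPM in KO [Compl] leaves and 15.2 and 13.7 CPM in Compl [EXS32] leaves. It was highest in KO [Compl], then in EXS34 [KO], and the other groups overlapped. The difference among the groups had an adjusted p of 0.00922, which was 0.0587 without KO [Compl] replicate 1. EXS32 [EXS34] was lower than KO [Compl], at -1.13 ± 0.20 (adjusted p = 0.0149), and KO [Compl] was higher than Compl [EXS32] by 0.92 ± 0.19 (adjusted p = 0.0103). The first call was lost without EXS32 [EXS34] replicate 2 (adjusted p = 0.0789) or either KO [Compl] library (0.13 and 0.055), and the second without KO [Compl] replicate 1 (0.0857) or either Compl [EXS32] library (0.0571 and 0.0903). PHO1, which WRKY6 represses, had 75.0 and 55.9 CPM in EXS34 [KO], 87.4 and 105 CPM in EXS32 [EXS34], 74.0 and 77.1 CPM in KO [Compl] and 92.9 and 133 CPM in Compl [EXS32] leaves. The 4 libraries of the groups with more WRKY6 had the 4 lowest PHO1 levels, but PHO1 was not called among the 4 leaf groups (adjusted p = 0.0694). PHO1 was called in 1 leaf pair, EXS34 [KO] over Compl [EXS32], at -0.78 ± 0.21 (adjusted p = 0.0394). In that pair WRKY6, at 0.47 ± 0.20, was not called (adjusted p = 0.135). In roots Compl had both the most WRKY6 and the highest mean PHO1, 2129 CPM. A transgene's reads can count at the PHO1 locus in leaves too, and repression was not tested. WRKY42 had 2.41 and 1.21 CPM in EXS34 [KO], 1.29 and 0.645 CPM in EXS32 [EXS34], 1.59 and 1.57 CPM in KO [Compl] and 2.24 and 1.42 CPM in Compl [EXS32] leaves, with no call.

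**Figure D3:**
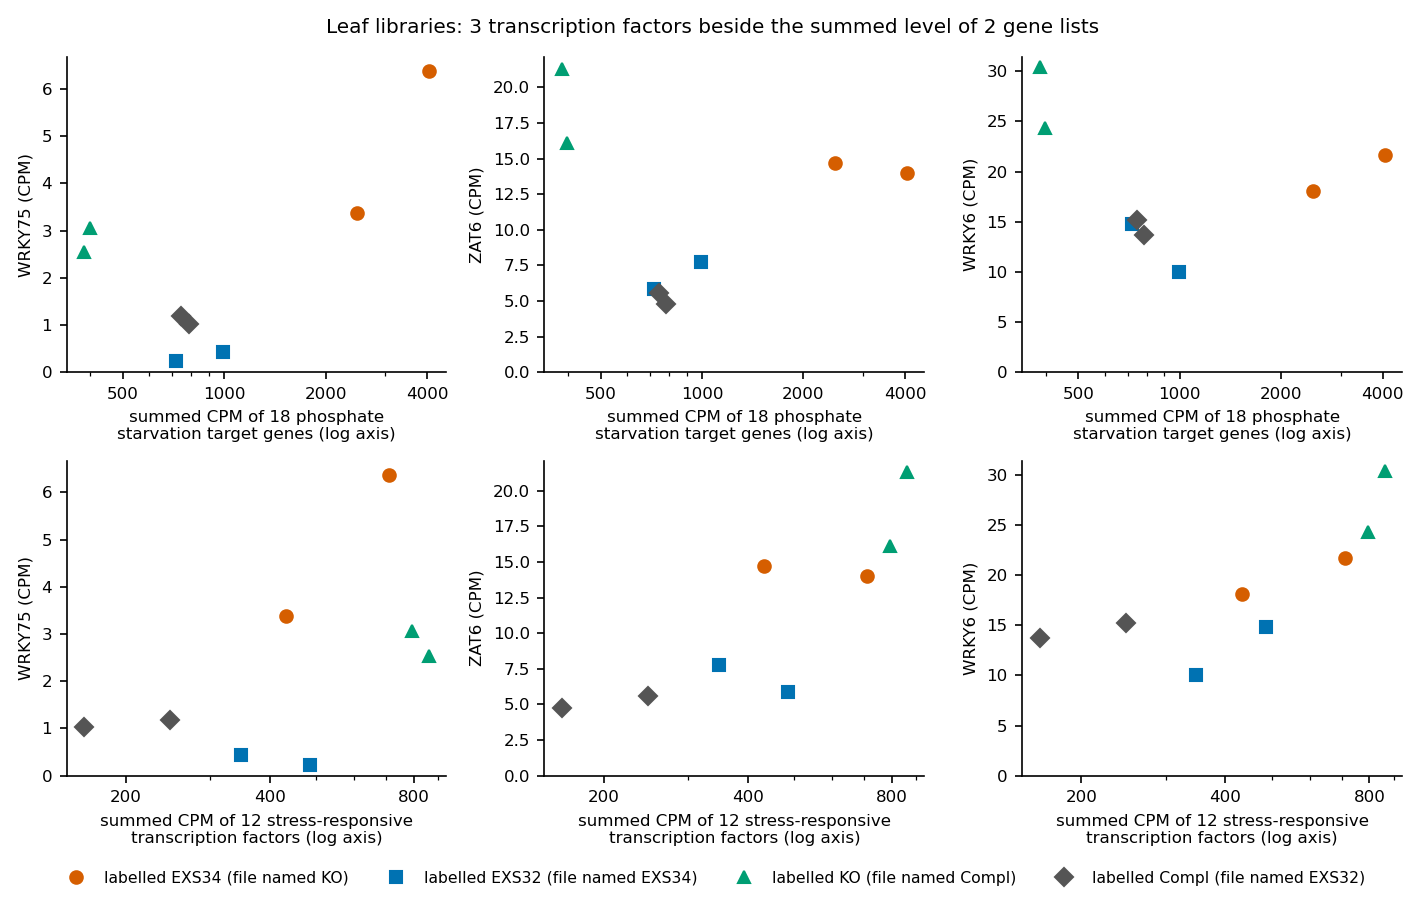
Level of WRKY75, ZAT6 and WRKY6 in the 8 leaf libraries (vertical axes, CPM, from 0) against the summed CPM of 18 phosphate starvation target genes (upper row) and of 12 stress-responsive transcription factors (lower row), both on log axes. Each point is 1 library, coloured by label with the file name in brackets; KO [Compl] libraries have the lowest target sums, 384 and 399 CPM, and the highest ZAT6 and WRKY6 levels.

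The phosphate starvation target genes stood in another order of leaf groups. The 18 phosphate starvation target genes summed to 4059 and 2483 CPM in EXS34 [KO], 720 and 993 CPM in EXS32 [EXS34], 384 and 399 CPM in KO [Compl] and 744 and 784 CPM in Compl [EXS32] leaves. WRKY75 was highest in the group with the highest target sum, but its second highest group, KO [Compl], had the lowest target sum. ZAT6 and WRKY6 were highest in KO [Compl]. EXS34 [KO] over KO [Compl] called 0 of 9 members with edgeR's quasi-likelihood test, 3 at an unadjusted p under 0.05, and 0 with DESeq2 or limma-voom, with 6.41% of all genes called. The same pair had 15 of 17 target genes higher and 0 lower, with a median log2 fold change of 4.05 against 0.02 for all genes and 3.27% of all genes called higher. Without 1 library of KO [Compl] 6 or 7 target genes were called. KO [Compl] over Compl [EXS32] had 0 target genes higher and 5 lower, with a median of -0.92, where KO over Compl in roots had 7 higher. With leaf groups named by their files KO over Compl is the pair with 15 of 17 target genes higher. Among them the noncoding RNA gene AT4 had 316 and 256 CPM in EXS34 [KO] and 11.4 and 12.2 CPM in KO [Compl] leaves.

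The 12 stress-responsive transcription factors, among them ERF5, ERF6 and ZAT10, summed to 711 and 432 CPM in EXS34 [KO], 486 and 348 CPM in EXS32 [EXS34], 862 and 795 CPM in KO [Compl] and 248 and 164 CPM in Compl [EXS32] leaves. KO [Compl] over Compl [EXS32] had 8 of the 11 tested higher and 0 lower, with a median of 2.03 against -0.02 for all genes, and 5 to 9 called without 1 library. EXS32 [EXS34] over KO [Compl] had 5 of 11 lower and 0 higher, with a median of -1.30 against 0.01 for all genes and 2.41% of all genes called lower, but 0 were called without KO [Compl] replicate 1, 1 without EXS32 [EXS34] replicate 2 and 2 without KO [Compl] replicate 2. ERF5 had 7.14 and 8.08 CPM in EXS34 [KO], 10.5 and 6.77 CPM in EXS32 [EXS34], 24.8 and 21.7 CPM in KO [Compl] and 6.63 and 6.83 CPM in Compl [EXS32] leaves. ZAT10 had 31.7 and 32.8 CPM, 21.0 and 17.5 CPM, 55.1 and 41.0 CPM, and 13.9 and 8.76 CPM in the same 4 groups and ZAT6 had the same order of group means. Senescence and salicylate genes were listed because WRKY75 promotes leaf senescence. Of 7 tested, 2 differed among the leaf groups, PR1 and PR2 (adjusted p = 0.0116 and 0.0215). That count is near the 26.9% of all genes called by the same test.

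PHR1 and its relatives varied less than the factors above. PHR1 had 62.1 and 60.6 CPM in EXS34 [KO], 52.1 and 52.0 CPM in EXS32 [EXS34], 58.2 and 56.6 CPM in KO [Compl] and 65.3 and 72.6 CPM in Compl [EXS32] leaves. The groups did not overlap, but the highest library was only 1.4 times the lowest. Its call among the groups was marginal (adjusted p = 0.0443), and EXS32 [EXS34] over Compl [EXS32] was its 1 called pair, at -0.40 ± 0.093 (adjusted p = 0.0211). The call among the groups was lost without either library of EXS32 [EXS34] (adjusted p = 0.11 and 0.0937), KO [Compl] (0.125 and 0.119) or Compl [EXS32] (0.0716 and 0.192), with DESeq2 (0.238) and with limma-voom (0.0522). The pair was lost without either library of EXS32 [EXS34] (0.0854 and 0.0734) or KO [Compl] (0.0539 and 0.0502), without Compl [EXS32] replicate 2 (0.147) and with DESeq2 (0.0918). KO [Compl] over Compl [EXS32] was called for PHR1 with only the 4 libraries compared, at -0.26 (adjusted p = 0.0437).

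PHL2 had 24.0 and 24.2 CPM in EXS34 [KO], 22.7 and 20.9 CPM in EXS32 [EXS34], 19.8 and 22.4 CPM in KO [Compl] and 29.3 and 28.1 CPM in Compl [EXS32] leaves. PHL3 had 47.8 and 49.6 CPM in EXS34 [KO], 49.4 and 40.0 CPM in EXS32 [EXS34], 41.1 and 39.7 CPM in KO [Compl] and 51.7 and 60.0 CPM in Compl [EXS32] leaves. Both genes were highest in Compl [EXS32]. KO [Compl] over Compl [EXS32] was called for both, at -0.45 ± 0.11 for PHL2 (adjusted p = 0.0222) and -0.47 ± 0.12 for PHL3 (adjusted p = 0.0247). The PHL2 call was lost without any 1 of the 4 libraries compared (adjusted p = 0.215, 0.064, 0.111 and 0.0965) and with DESeq2 (0.162). The PHL3 call was lost without either KO [Compl] library (0.129 and 0.14), without Compl [EXS32] replicate 2 (0.186) and with DESeq2 (0.0612). PHL1, with 16.1 to 21.8 CPM over all leaf libraries, differed in no pair. None of these 4 P1BS-binding factors had its highest transcript level in EXS34 [KO] leaves, the group whose target genes were highest. The part of these factors in the target gene differences was not tested. With 26.9% of all genes called among the leaf groups, 11 of 19 tested other regulators differed. They included SPX2, an inhibitor of PHR1, with 94.99 and 72.2 CPM in EXS34 [KO], 22.9 and 32.3 CPM in EXS32 [EXS34], 22.9 and 28.6 CPM in KO [Compl] and 21.9 and 20.3 CPM in Compl [EXS32] leaves, and the GARP-type repressors HHO2 and HHO3.

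BHLH32 had 9.17 and 11.2 CPM in EXS34 [KO], 5.99 and 6.77 CPM in EXS32 [EXS34], 6.59 and 6.46 CPM in KO [Compl] and 6.84 and 4.38 CPM in Compl [EXS32] leaves. EXS34 [KO] lay above all other leaf libraries, and EXS34 [KO] over Compl [EXS32] was called at 0.84 ± 0.23 (adjusted p = 0.0363). The call was lost without EXS34 [KO] replicate 2 (0.72, adjusted p = 0.12), without either KO [Compl] library (0.0616 and 0.0651), without Compl [EXS32] replicate 2 (0.58, adjusted p = 0.199), with DESeq2 (0.124), with all 16 libraries in 1 fit (0.0547) and with only the 4 libraries compared (0.0852). BHLH32 is known to repress PPCK1 and PPCK2, kinases of phosphoenolpyruvate carboxylase. Both were also highest in EXS34 [KO], and their repression by BHLH32 was not tested. PPCK1 had 183 and 106 CPM in EXS34 [KO], 42.9 and 39.1 CPM in EXS32 [EXS34], 56.7 and 45.5 CPM in KO [Compl] and 52.4 and 44.6 CPM in Compl [EXS32] leaves. PPCK2 had 7.63 and 4.94 CPM in EXS34 [KO] and 0.317 to 1.42 CPM in the other 6 leaf libraries. EXS34 [KO] over Compl [EXS32] was 1.58 ± 0.26 for PPCK1 and 2.22 ± 0.37 for PPCK2 (adjusted p = 0.0108 and 0.00445). MYB62, not tested, had 5 and 4 reads in EXS34 [KO], 1 and 7 in EXS32 [EXS34], 3 and 7 in KO [Compl] and 2 and 1 in Compl [EXS32] leaves.

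**Figure D4:**
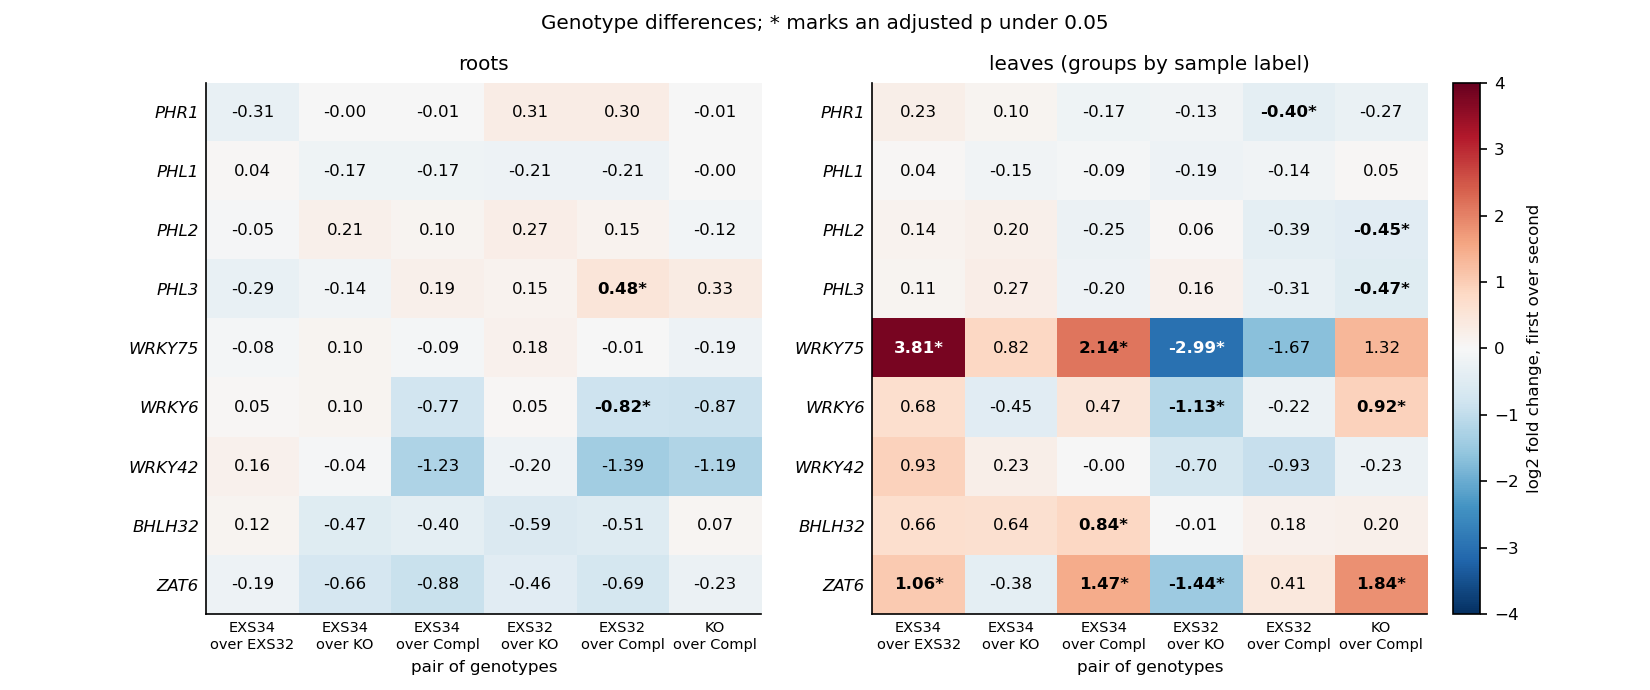
Log2 fold change of the 9 tested members in the 6 pairs of genotypes, first group over second, in roots (left) and in leaves by sample label (right). Asterisks mark an adjusted p under 0.05; roots have 2 marks, both in EXS32 over Compl, and leaves have 13, most of them for WRKY75, ZAT6 and WRKY6.

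Whether genotype differences differ between organs was tested as an interaction over all 16 libraries. With leaf groups by label 6 of 10 members were called, and 18.8% of 21351 genes: WRKY75 (adjusted p = 0.00535), ZAT6 (0.00811), PHL3 (0.00857), WRKY6 (0.01), PHR1 (0.0122) and BHLH32 (0.0449). With leaf groups named by their files WRKY75 alone was called (adjusted p = 0.0125), and 6.7% of genes. Under the file names the adjusted p was 0.24 for ZAT6, 0.386 for WRKY6, 0.613 for BHLH32, 0.618 for PHR1 and 0.995 for PHL3. WRKY75 was level in roots, with group means of 6.24, 6.6, 5.85 and 6.63 CPM in EXS34, EXS32, KO and Compl. In leaves its means were 4.87, 0.332, 2.8 and 1.1 CPM in EXS34 [KO], EXS32 [EXS34], KO [Compl] and Compl [EXS32]. Its interaction call held without any 1 library, at adjusted p-values of 0.00341 to 0.0236 by label. By label the BHLH32 call was lost without any 1 of 13 libraries, at adjusted p-values up to 0.124, with limma-voom (0.198) and with the replicate block (0.0518). By label the PHR1 call was lost without EXS32 roots replicate 2 (0.0521) or EXS32 [EXS34] replicate 2 (0.0534), and the ZAT6 call with limma-voom (0.0704).

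For each member called within an organ, the genes with the most similar levels over its 8 libraries were sought among genes whose mean reached 2 CPM, 17857 in roots and 17090 in leaves. Values are Pearson's r of log2 CPM and are descriptions only, since the libraries share groups and the best among so many genes is high by selection. In leaves the closest genes were AT1G69890 (r = 0.98), PUX5 (0.975) and AT1G23390 (0.97) for ZAT6, VPS24.1 (0.991), AT1G26390 (0.987) and CYP71B3 (0.98) for WRKY75, and MUG1 (0.987), AT1G14200 (0.98) and AT3G15980 (0.978) for WRKY6. In leaves the closest gene was AT3G22980 for PHR1 (0.994), AT1G02060 for PHL2 (0.983), AT2G14835 for PHL3 (0.974) and the mitochondrial locus ATMG00020 for BHLH32 (0.975). In roots it was the laccase gene LAC17 for WRKY6 (0.994) and AT5G26850 for PHL3 (0.992). No member was among the 3 closest genes of another.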

How the data were processed

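Raw counts of reads were deposited for each library over 32678 loci, beside 5 lines without a gene name. Those lines, 8.57 to 10.26% of reads in roots and 7.26 to 7.77% in leaves, were removed. Per the labels' protocols, stranded libraries were made from the mRNA of total RNA. Per the submitters' processing notes, the build was TAIR10 and the authors' tools included HTSeq 0.5.4p3, TopHat2 2.0.9 and cutadapt 1.2.1; the strand setting of the counts is not given in the sources used here.

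Genes were filtered with filterByExpr at its settings of 10 reads per library and 15 in total, scaled by TMM and tested with the robust quasi-likelihood functions of edgeR 4.0.16 (R 4.3.3). Adjustment was by Benjamini-Hochberg over all tested genes, and calls have an adjusted p under 0.05. Genotypes were tested within an organ over 8 libraries, and organs and the interaction over 16. Each standard error is the size of the log2 fold change over the square root of F. The scripts were tested on simulated data. Each library was counted as 1 replicate. Chi-square per degree of freedom between same-group libraries was 4.16 to 39.2, beyond counting error. That spread may be technical, so it cannot show that the libraries stem from separate plants. Groups follow the sample labels; for leaves the genotype in the file names was an alternative. The descriptions of both EXS34 replicate 2 samples number them 1, and their titles were followed.

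The 10 members and the gene lists beside them were chosen with earlier results of these data known. Of 96 list loci, 88 carry their name as a RefSeq symbol or synonym; PHL2 and PHL3 were kept by locus. Besides the members and PHO1, a list's named genes are up to 3 with the lowest p among the genotypes of an organ, and PPCK1 and PPCK2. The alternatives were DESeq2 1.42.0 and its size factors, library size alone, no filter, limma-voom (limma 3.58.1), a replicate block, other sets of libraries in the fit, and leaving out each library. Promoters were read from the RefSeq genome of TAIR10.1.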

Additional observations from a re-analysis of the deposited data

Results flagged for a closer look

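For 6 members the test of the difference itself found that genotype differences in roots and in leaves were unequal, with leaf groups by sample label. The adjusted p of this interaction in edgeR's quasi-likelihood test over 16 libraries was 0.00535 for WRKY75, 0.00811 for ZAT6, 0.00857 for PHL3, 0.01 for WRKY6, 0.0122 for PHR1 and 0.0449 for BHLH32. The same test called 4009 of 21351 genes (18.8%) by label and 1431 (6.7%) with leaf groups named by their files, and under the file names WRKY75 was the 1 member called (adjusted p = 0.0125). The other 5 had adjusted p-values of 0.24 to 0.995 under the file names, so their interaction was called only with the leaf groups named by label.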

How the results depend on the processing

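Counts of members called changed as follows, and the cause was not tested. Calls over all genes, given further below, changed with the settings too. In roots, DESeq2 called 1 member (WRKY6) among the genotypes, for EXS34 over Compl and for KO over Compl, and a fit of all 16 libraries called 2 among the genotypes (PHL3 and WRKY6) and 1 for KO over Compl (WRKY6). For EXS32 over Compl in roots limma-voom called 1 (PHL3) and the fit of only the 4 libraries compared called 1 (WRKY42); that fit also called 1 (BHLH32) for EXS32 over KO. In leaves by label, EXS34 over EXS32 had 1 call (WRKY75) with all 16 libraries in 1 fit and with only the 4 compared, EXS32 over Compl had 0 with DESeq2, and KO over Compl had 2 with DESeq2 (WRKY6 and ZAT6). Without 1 library the calls among root genotypes numbered 0 to 1, for EXS34 over Compl 0 to 1, for KO over Compl 0 to 1 and for EXS32 over Compl 0 to 2. In leaves they numbered 2 to 4 among the groups, 0 to 2 for EXS34 over EXS32, 1 to 3 for EXS34 over Compl, 0 to 3 for EXS32 over KO, 0 to 1 for EXS32 over Compl and 1 to 5 for KO over Compl. A lone library was then assumed to vary like the other groups.

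Naming the leaf groups by their files permutes the 6 pairs. Member calls then numbered 1 (PHR1) for EXS34 over EXS32, with 14.8% of all genes called, and 2 (WRKY75 and ZAT6) for EXS34 over KO, with 5.69%. They numbered 4 (PHL2, PHL3, WRKY6 and ZAT6) for EXS32 over Compl, with 21.1%, and 0 for KO over Compl, with 6.41%. The interaction called 1 member (WRKY75) and 6.7% of all genes. Of the 54 leaf values of the 9 members 35 changed sign, 20 of them called under neither naming. Among those called under either naming, directions turned for EXS34 over EXS32 in PHR1 (-0.40) and WRKY75 (-1.67), for EXS34 over KO in WRKY75 (-3.81), and for EXS34 over Compl in WRKY75 (-2.99), WRKY6 (-1.13), BHLH32 (-0.02) and ZAT6 (-1.44). They also turned for EXS32 over Compl in PHR1 (0.27), PHL2 (0.45), PHL3 (0.47) and ZAT6 (-1.84), and for KO over Compl in PHL2 (0.20), PHL3 (0.27), WRKY6 (-0.45) and ZAT6 (-0.38). PHR1 between organs turned to 0.44 with library size alone.

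Over all genes, calls in roots numbered 820 among genotypes (10 to 1670 without 1 library and 502 to 3000 in the other settings), 187 for EXS34 over EXS32 (0 to 355 and 108 to 1085), 0 for EXS34 over KO (0 to 1 and 0 to 100), 27 for EXS34 over Compl (0 to 698 and 2 to 642), 26 for EXS32 over KO (0 to 98 and 21 to 537), 2548 for EXS32 over Compl (112 to 3302 and 1337 to 3845) and 182 for KO over Compl (0 to 1427 and 11 to 1234). In leaves they numbered 4981 among the groups (2211 to 5770 and 3898 to 6491), 1056 for EXS34 over EXS32 (165 to 1663 and 158 to 1840), 1189 for EXS34 over KO (143 to 1249 and 371 to 1949), 3403 for EXS34 over Compl (1022 to 3433 and 1918 to 4266), 1099 for EXS32 over KO (39 to 1893 and 682 to 2153), 2754 for EXS32 over Compl (986 to 3534 and 1939 to 3494) and 3910 for KO over Compl (1489 to 4637 and 2729 to 5719). These leaf pairs are named by label, not by file. The share of genes called, against which the members are read, moves with the calls over all genes.

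Leaf groups are again named by label here. Whether same-numbered libraries share more than their number cannot be told from these values. Their deviations from the group means correlated at -0.25 to 0.22 in roots and, always positive, at 0.04 to 0.33 in leaves. With the replicate number as a block the calls among genotypes were 638 in roots and 6491 in leaves, against 820 and 4981, and EXS32 over Compl leaves called 2 members (PHR1 and PHL2). The block also called WRKY42 between organs (0.50, adjusted p = 0.0485) and, in leaves, PHL2 among the groups (0.045), WRKY6 for EXS34 over EXS32 (0.0149) and for EXS34 over Compl (0.0389) and WRKY75 for KO over Compl (0.0449). It ended the BHLH32 interaction call (0.0518). PHL3 was called among leaf groups with all 16 libraries in 1 fit (0.0413) and without EXS32 replicate 1 (0.0434), and the PHL2 interaction without Compl roots replicate 1 (0.0307). Few reads limit WRKY75 in EXS32 leaves by label, WRKY42 and MYB62.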
